A study of Mus musculus with 12 samples.

Results

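The genes described here mark blood progenitors and the megakaryocyte lineage, and the question asked of them was which stayed on in mast cells cultured from marrow for 10 weeks. The members were fixed by name as Cd34, Flt3, Gfi1b, Pf4, Gp9, Ly6a, Myb and Lmo2. A member was measured if a probe set of the array was annotated to its symbol alone, and 7 of the 8 were, each by 1 probe set, out of 19938 genes in all. Ly6a, which encodes the Sca-1 antigen, had no such probe set and was not analysed here.

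The series holds 12 arrays of cultured mast cells in 4 groups of 3. They are ACKR2-/- (D6-/-) cells at 10 weeks, wildtype C57BL/6 cells at 10 weeks, ACKR2-/- cells at 2 weeks and wildtype C57BL/6 cells at 2 weeks. Both genotypes carry the C57BL/6 strain label, and marrow came from female mice aged 4 to 6 weeks. All cultures received stem cell factor at 12.5 ng/ml and interleukin 3 at 10 ng/ml, the cytokines that turn marrow cells into mast cells. Per the labels' protocols the cultures looked homogeneous only after 4 weeks, and some 2-week cells were selected on a column for CD117, the product of Kit. Which arrays that concerns is not stated. The labels call the arrays biological replicates without naming an animal or culture, so p-values measure only the spread between these samples. ACKR2 is an atypical chemokine receptor that takes up inflammatory CC chemokines.

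Progenitors in the marrow are recognised by surface proteins such as CD34, a sialomucin, and FLT3, a receptor kinase that binds FLT3 ligand and drives early lymphoid and dendritic development. Their identity rests on transcription factors that include MYB, which sustains immature blood cells, and LMO2, a bridging protein that joins TAL1 and GATA factors on DNA. GFI1B, a repressor, is needed for megakaryocytes and red cells, while PF4 (CXCL4) is a chemokine stored in platelet granules and GP9 is a chain of the platelet receptor for von Willebrand factor. In the mouse, mast cells are known to keep CD34, KIT and GATA factors after they mature, whereas FLT3 is lost early.

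Before the values, the 250 bases ahead of the start that the sequence table uses are shown for Cd34, Gfi1b and Flt3, the members with the largest gap between the arrays rich and poor in mast cell transcripts described below, and for the platelet genes Pf4 and Gp9. For Gp9 that start lies inside the full RefSeq span of the gene, chr6:87776131-87779786, so its window is not the sequence ahead of the whole gene. The sequences are RefSeq's on GRCm38.p6, read 5′ to 3′ along the gene, and 6 of the 8 members matched an entry, Lmo2 and Ly6a not. Capitals mark GATA words (AGATAA or its variants AGATAG, also TGATAA and likewise TGATAG) and ETS words (CGGAAG or alternatively AGGAAG), on either strand, so a reverse match reads as its complement.
Cd34, chr1:194938571-194938820, plus strand: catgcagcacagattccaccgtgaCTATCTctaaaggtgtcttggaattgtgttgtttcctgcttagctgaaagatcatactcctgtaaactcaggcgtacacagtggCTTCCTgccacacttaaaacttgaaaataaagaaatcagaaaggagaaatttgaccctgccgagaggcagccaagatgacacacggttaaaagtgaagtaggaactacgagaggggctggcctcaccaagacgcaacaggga
Flt3, chr5:147400490-147400739, minus strand: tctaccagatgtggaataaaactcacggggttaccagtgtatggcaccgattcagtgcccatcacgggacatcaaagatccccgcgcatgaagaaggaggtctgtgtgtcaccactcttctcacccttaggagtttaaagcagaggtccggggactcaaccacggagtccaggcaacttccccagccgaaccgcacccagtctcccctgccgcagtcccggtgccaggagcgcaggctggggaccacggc
Gfi1b, chr2:28621983-28622232, minus strand: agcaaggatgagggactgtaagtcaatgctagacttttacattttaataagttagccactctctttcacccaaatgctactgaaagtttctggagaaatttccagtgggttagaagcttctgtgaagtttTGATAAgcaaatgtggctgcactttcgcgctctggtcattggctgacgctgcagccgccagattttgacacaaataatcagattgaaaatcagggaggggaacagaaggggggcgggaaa
Pf4, chr5:90772185-90772434, plus strand: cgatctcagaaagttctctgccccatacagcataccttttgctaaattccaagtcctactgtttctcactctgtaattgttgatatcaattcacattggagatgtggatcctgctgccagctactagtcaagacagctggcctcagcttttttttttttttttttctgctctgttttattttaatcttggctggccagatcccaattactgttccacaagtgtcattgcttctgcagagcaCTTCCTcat
Gp9, chr6:87777820-87778069, plus strand: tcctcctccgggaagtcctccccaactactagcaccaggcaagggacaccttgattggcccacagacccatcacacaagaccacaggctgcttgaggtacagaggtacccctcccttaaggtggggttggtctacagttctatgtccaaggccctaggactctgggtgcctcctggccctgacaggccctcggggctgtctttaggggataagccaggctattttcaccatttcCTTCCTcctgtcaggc

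A GATA word stood at 226 to 221 bases before the start of Cd34 and at 120 to 115 bases before that of Gfi1b. The windows of Flt3, Pf4, Gp9 and Myb (not shown) held none. An ETS word lay at 142 to 137 bases before the start of Cd34 and at 9 to 4 bases before that of Pf4. One lay at 16 to 11 bases before the start the table uses for Gp9, within the gene's full span, and none lay in the Flt3, Gfi1b or Myb window. Of 32817 such windows in the RefSeq table, 26.6% held a GATA word and 39.2% an ETS word, so these matches are common. A match describes the letters only and shows no binding.

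The 12 arrays did not all look like mast cells, and this bears on each result at 2 weeks. Averaged over 16 mast cell genes, the log2 value was 11.63 to 12.09 on the ACKR2-/- 10-week arrays, 11.93 to 12.23 on the wild type 10-week arrays and 12.21 and 12.14 on wild type 2-week arrays 1 and 2. It was 6.54 to 6.68 on the 3 ACKR2-/- 2-week arrays and 6.63 on wild type 2-week array 3. Those 4 arrays also carried 9 B cell genes at an average of 9.96 to 12.72, against 6.89 to 7.25 on the other 8, and 12 T and NK cell genes at 8.70 to 11.59, against 7.25 to 7.92. Xist, an X chromosome RNA, read 5.77 to 6.23 on the 4, against 13.002 to 13.37 elsewhere, and Kdm5d, a Y chromosome gene, 10.06 to 10.51, against 6.04 to 6.42, although the labels give female mice throughout. ACKR2-/- 2-week array 3 differed again, highest of the 4 in B cell genes and lowest in T and NK cell genes. They are called the mast-cell-low arrays below, as a description and not as a group of the study.

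Values are RMA log2 signals, which carry no detection call. As a rough guide to what an absent transcript reads, 46 measured genes of tissues such as liver, retina, heart and testis were used, and their 95th percentile lay between 7.96 and 8.48 over the arrays. A member above that percentile on every array of interest is called above the silent range. Probe sets differ in how strongly they bind, so a value inside the range does not show absence, and levels are not compared between genes. In a bulk sample, fewer cells of a type and less RNA per cell cannot be told apart.

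At 10 weeks 5 of the 7 measured members were above the silent range on all 6 arrays. These were Cd34, Myb, Gfi1b, Lmo2 and Gp9, while Flt3 was below it on all 6 and Pf4 was above it on 4. Over 19892 genes outside the silent list, 40.6% were above it on all 6 arrays. With the highest silent value on each array as the limit, Gp9 was lost and 4 members remained above it.

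**Figure D1:**
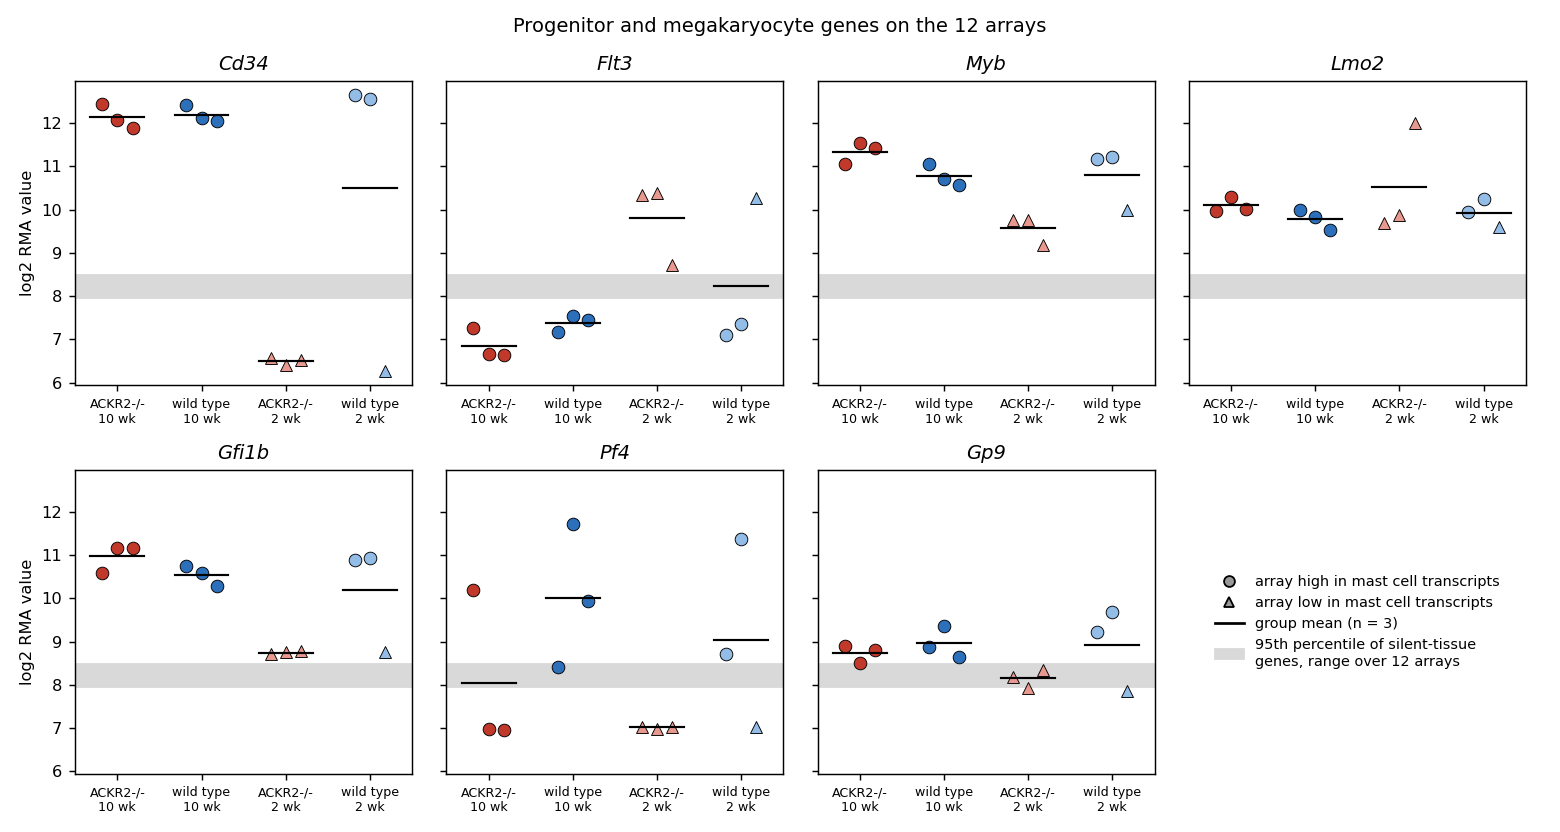
Log2 RMA value of the 7 measured members on each array, with groups from left to right ACKR2-/- and wild type at 10 weeks and ACKR2-/- and wild type at 2 weeks. Each point is 1 array, triangles are the 4 mast-cell-low arrays, black bars are means of 3 arrays, and the grey band spans 7.96 to 8.48, the 95th percentiles of the silent-tissue genes. Cd34 and Gfi1b are low and Flt3 is high on the triangles, and Pf4 spreads widely within the 10-week groups.

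Cd34 read 12.44, 12.08 and 11.88 on the ACKR2-/- 10-week arrays, against 12.43, 12.12 and 12.04 on the wild type 10-week arrays. At 2 weeks it read 6.57, 6.42 and 6.53 in ACKR2-/- cells, against 12.66, 12.56 and 6.27 in wild type cells. The 10-week genotypes overlapped almost fully, and the 4 mast-cell-low arrays stood at least 5.31 log2 units below every other array. Wild type 2-week arrays 1 and 2 were higher than all 6 arrays at 10 weeks, by less than the gap to the mast-cell-low arrays. Its 10-week margin above the silent range was 3.56 to 4.47.

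Flt3 ran the other way. It read 7.27, 6.66 and 6.64 on the ACKR2-/- 10-week arrays, against 7.17, 7.55 and 7.45 on the wild type 10-week arrays. At 2 weeks it read 10.34, 10.39 and 8.72 in ACKR2-/- cells, against 7.11, 7.35 and 10.26 in wild type cells. It was above the silent range on the 4 mast-cell-low arrays and on no other. Among these 4, ACKR2-/- 2-week array 3 was the lowest, and that array also had the highest value of Cd79a, a B cell receptor chain, at 12.80, against 10.25 to 10.58 on the other mast-cell-low arrays. Whether cell types other than mast cells account for Flt3 on these arrays was not tested. Flt3l, the ligand of FLT3, read 10.73, 11.45 and 11.46 in ACKR2-/- cells at 10 weeks, against 10.88, 10.83 and 10.59 in wild type cells, so the ligand's transcript was measured where that of the receptor was not above the silent range.

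Among the transcription factors, Myb read 11.05, 11.54 and 11.43 on the ACKR2-/- 10-week arrays, against 11.06, 10.71 and 10.56 on the wild type 10-week arrays. At 2 weeks the values were 9.77, 9.77 and 9.17 in ACKR2-/- cells, against 11.17, 11.22 and 9.99 in wild type cells. Myb was above the silent range on all 12 arrays and lower on the 4 mast-cell-low ones, by at least 0.57. Gfi1b read 10.59, 11.17 and 11.16 on the ACKR2-/- 10-week arrays, against 10.74, 10.59 and 10.30 on the wild type 10-week arrays. At 2 weeks it read 8.70, 8.75 and 8.79 in ACKR2-/- cells, against 10.89, 10.93 and 8.76 in wild type cells. Its 4 mast-cell-low values spanned only 0.090 log2 units and lay 1.502 below the lowest of the other 8.

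Lmo2 did not follow that division. It read 9.98, 10.30 and 10.02 on the ACKR2-/- 10-week arrays, against 10.00, 9.84 and 9.54 on the wild type 10-week arrays. At 2 weeks it read 9.70, 9.88 and 11.997 in ACKR2-/- cells, against 9.95, 10.24 and 9.61 in wild type cells. On 11 arrays it stayed between 9.54 and 10.30, and the exception was ACKR2-/- 2-week array 3, the array highest in Cd79a.

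Pf4 was the most variable member at 10 weeks, with a range of 4.74 log2 units over the 6 arrays, against 0.56 to 0.97 for the other 6 members. It read 10.20, 6.99 and 6.97 on the ACKR2-/- 10-week arrays, against 8.41, 11.71 and 9.93 on the wild type 10-week arrays. At 2 weeks it read 7.03, 6.99 and 7.03 in ACKR2-/- cells, against 8.70, 11.37 and 7.04 in wild type cells. ACKR2-/- 10-week arrays 2 and 3 thus read like the mast-cell-low arrays for Pf4, though their mast cell average was 11.69 and 11.63.

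Over the same arrays, 13 monocyte and macrophage genes averaged 9.92, 7.69 and 7.86 in ACKR2-/- cells at 10 weeks, against 9.32, 10.62 and 10.02 in wild type cells. Pf4 and this average were both lowest on ACKR2-/- arrays 2 and 3 and highest on wild type array 2. On the 4 mast-cell-low arrays the average was 10.10 to 10.59 while Pf4 stayed between 6.99 and 7.04, so the relation did not extend to them. Of the 13 genes, 4 (30.8%) were above the silent range on all 6 arrays at 10 weeks, against 40.6% of all genes. On all 3 ACKR2-/- 10-week arrays 4 were above it, and 10 on all 3 wild type 10-week arrays. The share of all genes was not computed for 3 arrays. Their part in the Pf4 values was not tested.

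**Figure D2:**
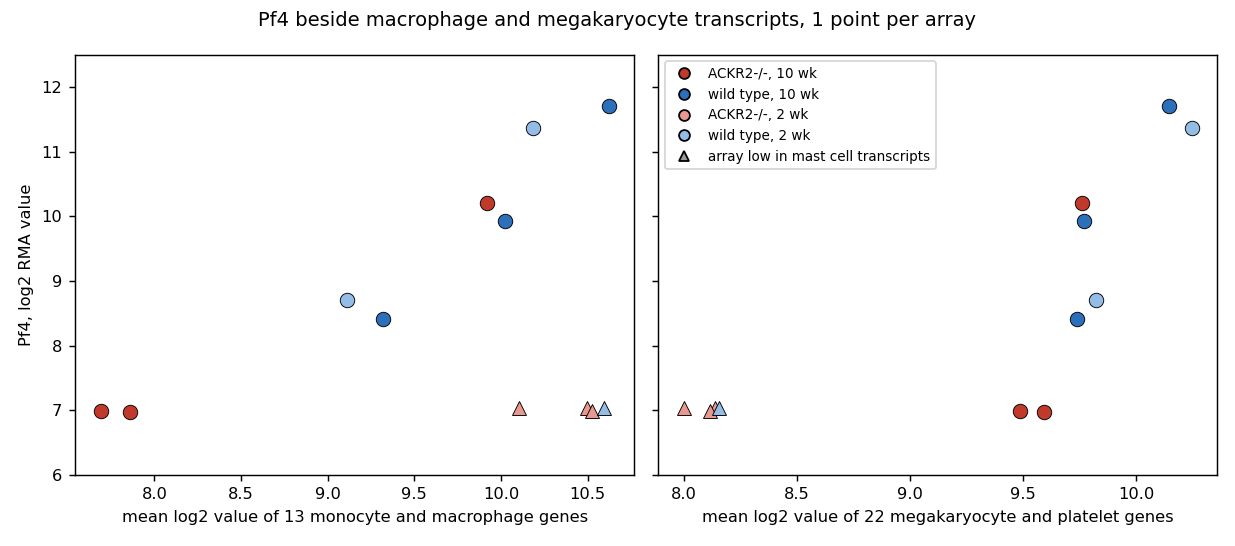
Log2 value of Pf4 on each array against the mean log2 value of 13 monocyte and macrophage genes (left) and of 22 megakaryocyte and platelet genes (right), with colours for the 4 groups and triangles for the mast-cell-low arrays. Among the 8 other arrays Pf4 is at 6.97 to 11.71 and is highest where the macrophage average is highest. The triangles combine macrophage averages of 10.10 to 10.59 with Pf4 at 6.99 to 7.04. Their averages of the 22 genes are 7.998 to 8.15, against 9.49 to 10.25 on the 8 other arrays. Among those 8 the highest 22-gene average is on wild type 2-week array 2, not where Pf4 is highest.

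Gp9 had the smallest margins. It read 8.90, 8.51 and 8.82 on the ACKR2-/- 10-week arrays, against 8.89, 9.35 and 8.65 on the wild type 10-week arrays, only 0.16 to 0.94 above the silent range. At 2 weeks it read 8.19, 7.92 and 8.34 in ACKR2-/- cells, against 9.23, 9.69 and 7.87 in wild type cells. The mast-cell-low arrays were below the other 8 by at least 0.17. The highest value of each wild type group belonged to replicate 2, the array with the highest Pf4 of its group.

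Between the genotypes at 10 weeks no member passed the threshold of a limma adjusted p under 0.05, and neither did any of the 19938 genes (0%). The lowest adjusted p of the genes tested was 0.448, and 1566 genes had an unadjusted p under 0.05. Myb differed by 0.56 ± 0.32 (SE) (limma, adjusted p = 0.733), and its groups touched only at ACKR2-/- array 1 and wild type array 1. Pf4 differed by -1.97 ± 1.19 with a 95% interval from -4.60 to 0.67 (limma, adjusted p = 0.770). It was -3.04 without ACKR2-/- 10-week array 1 and -1.12 without wild type 10-week array 2, so single arrays moved its size by more than 1.5 times. Cd34 differed by -0.06 ± 1.32, an error pooled over all groups, and the wild type 2-week arrays spanned 6.27 to 12.66. When the 10-week arrays were fitted alone its error was 0.18, and the lowest adjusted p of a member was 0.404, for Myb. The intervals do not show that the genotypes were alike.

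At 2 weeks the averages of Cd34, Gfi1b, Pf4, Gp9 and Myb were lower, and those of Flt3 and Lmo2 higher, in the ACKR2-/- group, with no member past the threshold and 0% of all genes. Cd34 averaged 6.51 ± 0.08 in ACKR2-/- cells and 10.49 ± 3.66 in wild type cells (SD, n = 3), or -3.98 ± 1.32 apart on the log2 scale (limma, adjusted p = 0.225). Myb differed by -1.22 ± 0.32 at the same adjusted p. Of the 7 members 2, Pf4 and Myb, were lower with no overlap of the groups, as were 8.6% of all genes. For Pf4 the highest ACKR2-/- value was 7.031 and the lowest wild type value 7.036, both below the silent range. The wild type mean mixes 2 arrays high in mast cell transcripts with 1 low in them. Without wild type 2-week array 3, 5 members passed in limma, Cd34 at -6.10, Gfi1b at -2.16, Myb at -1.63, Gp9 at -1.31 and Flt3 at 2.58, among 4738 of all genes. That fit sets arrays high in mast cell transcripts against arrays low in them, so genotype and array type cannot be told apart. Lmo2, at 0.59 ± 0.49 with all arrays, was at -0.14 without ACKR2-/- 2-week array 3.

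Between 10 and 2 weeks in the ACKR2-/- cells, 3 members were called higher, against 10.5% of all genes, and 1 was called lower, against 6.33%. Cd34 rose to 12.13 ± 0.28 at 10 weeks, against 6.51 ± 0.08 at 2 weeks (SD, n = 3), or 5.63 ± 1.32 apart on the log2 scale (limma, adjusted p = 0.0189). Gfi1b rose by 2.23 ± 0.47 and Myb by 1.77 ± 0.32 on the log2 scale. Flt3 fell by 2.96, to 6.86 ± 0.36 at 10 weeks, against 9.82 ± 0.95 at 2 weeks, with a limma adjusted p of 0.0227. Gp9 differed by 0.59 ± 0.38, Pf4 by 1.03 ± 1.19 and Lmo2 by -0.43 ± 0.49, none of them called. Cd34, Gfi1b, Myb and Gp9 were higher with no overlap of the groups, as were 26.7% of all genes. All 3 ACKR2-/- 2-week arrays were mast-cell-low, so week and array type cannot be told apart here. The 4 calls fell to 2 without ACKR2-/- 2-week array 1 or 2, and to 0, with no gene called at all, without ACKR2-/- 10-week array 2 or 3.

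In the wild type cells no member was called between 10 and 2 weeks, nor was any gene (0%), and the lowest adjusted p over all genes was 0.439. Cd34 differed by 1.71 ± 1.32 and Flt3 by -0.85 ± 0.73. Without wild type 2-week array 3, Cd34 was at -0.41 ± 0.17, Gfi1b at -0.37 ± 0.19, Myb at -0.42 ± 0.22, Gp9 at -0.50 ± 0.23 and Flt3 at 0.16 ± 0.43, with limma adjusted p of 0.642 or more. Between arrays that all carried mast cell transcripts, these members therefore differed by at most 0.50 on average between the weeks. The change over weeks was tested between the genotypes as an interaction, which called no member and 0% of genes. Myb had the lowest p of the members there, at 1.78 ± 0.45 with a limma adjusted p of 0.424. Without wild type 2-week array 3 the interaction called 5 members among 3138 genes.

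**Figure D3:**
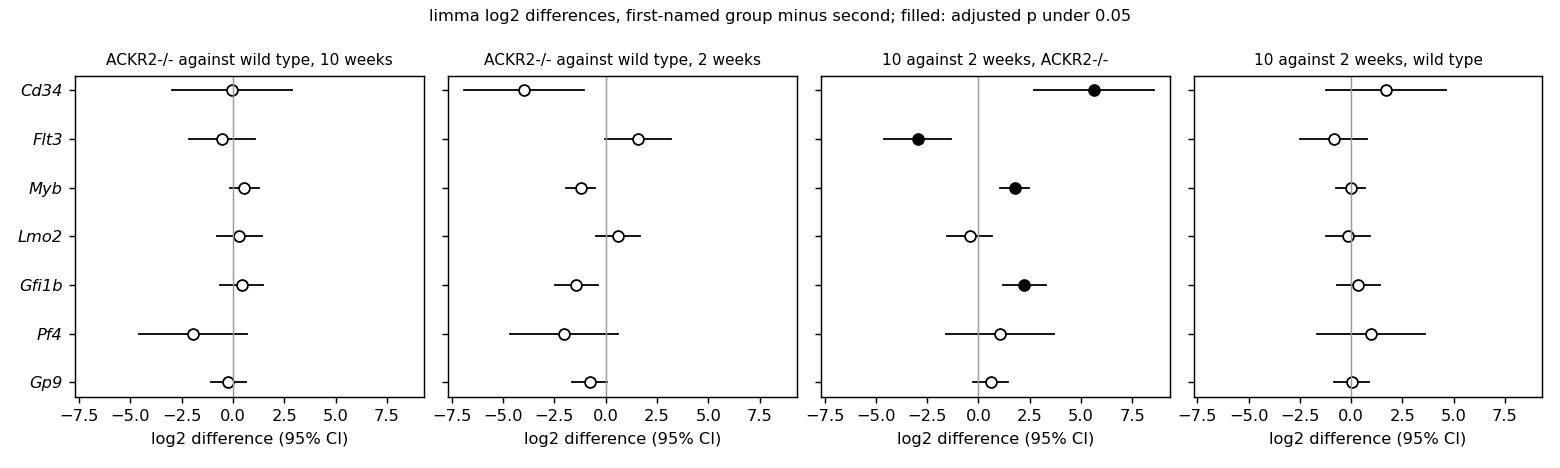
Limma log2 differences of the 7 members in 4 comparisons, first-named group minus second, with 95% intervals from the fit to all 12 arrays and filled points for an adjusted p under 0.05. Only Cd34, Flt3, Myb and Gfi1b between 10 and 2 weeks in ACKR2-/- cells are filled, and the intervals of Cd34 and Pf4 are the widest.

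Genes that work with the members were then read from fixed lists. Their medians stand beside the median of all genes (0.06 between 10 and 2 weeks in ACKR2-/- cells). In that comparison a gene said to rise or fall was called, as were 10.5% of all genes higher and 6.33% lower. The ACKR2-/- 2-week arrays were all mast-cell-low, so for every list below week and array type cannot be told apart. All 11 listed partners in the LMO2, TAL1 and GATA complex were above the silent range on all 6 arrays at 10 weeks. The share of all genes was 40.6%, and 7 of the 11 were also above it on all 4 mast-cell-low arrays. Between 10 and 2 weeks in ACKR2-/- cells 6 of the 11 rose and none fell, with a median of 1.54. Gata2, a factor of stem and mast cells, rose by 5.98 ± 1.30, Gata1, of megakaryocytes, red cells and mast cells, by 3.69 ± 0.71, Erg, an ETS factor, by 2.99 ± 0.60, and Tal1 by 3.00 ± 0.67. Gata2 read 13.77, 13.65 and 13.71 at 10 weeks in ACKR2-/- cells, against 7.63, 7.66 and 7.89 at 2 weeks. In wild type cells at 2 weeks it read 13.81, 13.85 and 7.55. Ldb1, which bridges LMO2 complexes between DNA sites, read 12.07 to 12.49 on the 12 arrays.

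The 6 measured genes listed with GFI1B, its relative Gfi1 among them, were also all above the silent range at 10 weeks. The share of all genes was 40.6%, and all 6 were above it on the 4 mast-cell-low arrays too. Between 10 and 2 weeks in ACKR2-/- cells 1 fell and none rose, the one being Hdac1, a histone deacetylase, which fell by 0.61. Gfi1, the close relative of Gfi1b known from neutrophils and lymphocytes, differed by 0.63 ± 0.33 with a limma adjusted p of 0.230. Among the receptor kinases and ligands related to FLT3, 3 of 7 rose in that comparison and 1 fell. Kit, the receptor of the culture's stem cell factor, rose by 5.21 ± 1.03, and Csf1r, the macrophage growth factor receptor, fell by 3.57. Kit read 13.85, 13.90 and 9.18 in wild type cells at 2 weeks. Of the CD34 family, Podxl rose by 1.14 ± 0.35. Of MYB relatives and coactivators, 1 of 4 fell and none rose, and Crebbp fell by 0.38.

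Of 22 other megakaryocyte and platelet genes, 15 were above the silent range on all 6 arrays at 10 weeks (68.2%, against the 40.6% of all genes), and 7 on all 4 mast-cell-low arrays. Between 10 and 2 weeks in ACKR2-/- cells 10 rose and 2 fell, with a median of 1.27. Itga2b, the alpha chain of the platelet fibrinogen receptor, rose by 4.98 ± 0.93, and Tbxas1, thromboxane synthase, by 3.25 ± 0.61. Cd9, a tetraspanin, rose by 2.39 ± 0.43 and F2rl2, a thrombin receptor, by 2.42 ± 0.45. Itga2b read 12.66, 13.08 and 13.07 in ACKR2-/- cells at 10 weeks, against 12.55, 12.53 and 12.63 in wild type cells. In wild type cells at 2 weeks it read 12.54, 12.62 and 8.10. Several of these genes are also known in mast cells, and the list does not separate the lineages.

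Between the genotypes at 10 weeks the same 22 genes had a median of 0.04 and none was called. The lowest p values belonged to Thbs1, thrombospondin of platelet granules, at -2.91 ± 1.01 (limma adjusted p = 0.543), and Ppbp, the platelet chemokine encoded beside Pf4, at -3.02 ± 1.27 (0.599). Ppbp read 9.53, 6.43 and 6.48 in ACKR2-/- cells at 10 weeks, against 9.17, 12.53 and 9.78 in wild type cells. Thbs1 read 9.66, 7.02 and 7.08 in ACKR2-/- cells, against 10.70, 11.59 and 10.19 in wild type cells. Both were lowest on the arrays where Pf4 was lowest and highest on wild type array 2. The average of the 22 genes, these included, had its lowest and highest 10-week values on the same arrays. Clec1b also shared that order, at 6.44, 5.94 and 6.34 in ACKR2-/- cells, against 6.71, 7.41 and 6.52 in wild type cells. All of these Clec1b values lay below the silent range. Itga2b and Gp5, a partner of GP9 in its receptor, did not share that order. In the 6 measured CXC chemokine genes of the chromosomal cluster around Pf4, Ppbp included, none was called in any comparison.

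Of 20 other early progenitor genes, 7 were above the silent range on all 6 arrays at 10 weeks and 9 on none. The 7 are 35%, against the 40.6% of all genes. Between 10 and 2 weeks in ACKR2-/- cells 8 rose and 4 fell. Angpt1, the ligand of the TEK receptor, rose by 5.73 ± 1.17 and Erg and Mecom, transcription factors, by 2.99 ± 0.60 and 3.30 ± 0.68. Slamf1, a lymphocyte and stem cell surface receptor, fell by 3.65. Bcl11a, a lymphoid and stem cell factor, fell by 2.88. Meis1, a homeobox factor, read 10.86, 10.81 and 11.21 in ACKR2-/- cells at 10 weeks, against 11.09, 10.57 and 10.39 in wild type cells. Hoxa9 and Prom1, other genes of immature cells, read at most 6.92 and 6.56 on the 12 arrays. Between the genotypes at 10 weeks no gene of the list was called and the median was -0.13.

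**Figure D4:**
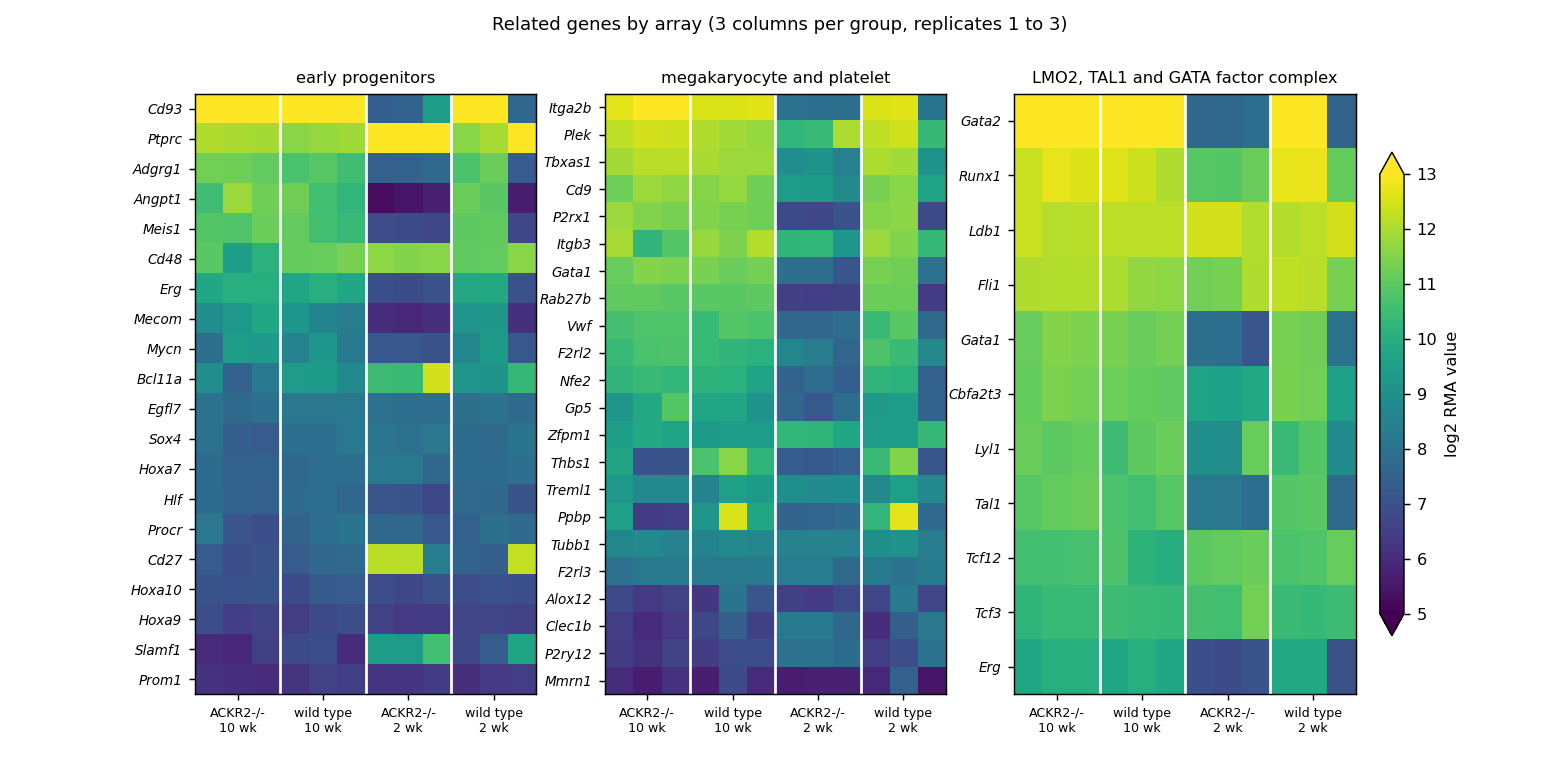
Log2 RMA values, as colour from 5 to 13, of 20 early progenitor genes, 22 megakaryocyte and platelet genes and 11 partners of LMO2 (rows, ordered by their 10-week mean) on the 12 arrays (columns, 3 per group in replicate order). The ACKR2-/- 2-week columns and the last column, wild type 2-week array 3, differ from the other 8, and Ppbp and Thbs1 are dark on ACKR2-/- 10-week arrays 2 and 3.

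The genes most like each member were ranked by Pearson's r of log2 values among 17311 genes. Over the 12 arrays these were Mamdc2, Rab27b and Hs6st2 for Cd34 (r = 0.998 each), Tom1, Ndst3 and Slco4a1 for Gfi1b (0.996 to 0.997), Arhgap32, Ifit1bl2 and Ehd3 for Flt3 (0.991 each) and Sfxn3, Prkca and Il12rb2 for Myb (0.988 to 0.992). Such values mostly restate the gap between the mast-cell-low arrays and the rest, which many genes share. Lmo2 was most like Arhgap17, Myo1e and Smim14 (0.963 to 0.983). Like Lmo2, these read highest on ACKR2-/- 2-week array 3, at 11.76, 11.76 and 12.47, against at most 10.54, 9.70 and 11.56 on the other arrays, so the likeness rests on that array. Gp9 had the weakest likeness, to Dio2, Parvb and Rcvrn (0.933 to 0.938). Pf4 was most like Trem2, a macrophage surface receptor, F7, coagulation factor VII, and Fstl1 (0.982 to 0.987). Over the 6 arrays at 10 weeks Pf4 was the one member with a range of at least 1, and it was most like Cd68, a macrophage lysosomal protein, Gab1, an adaptor, and Lrp1, an endocytic receptor (0.995 to 0.998). Cd68 read 11.58, 9.64 and 9.74 in ACKR2-/- cells at 10 weeks, against 10.41, 12.37 and 11.31 in wild type cells. The 6 arrays are few, and 2125 genes with a range of at least 1 were ranked on them.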

How the data were processed

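RNA of 12 samples was hybridised to 1 array each. The authors deposited log2 values of 35399 probe sets, and the submitters' processing notes name RMA and Partek 6.5. RMA includes a background correction and quantile normalization and summarises probes, which can compress large differences. The sources used here do not give a genome build. Platform annotation gave 21789 probe sets 1 symbol, and 1621 had several and were not used. The probe set with the highest mean was kept per gene. No scanner files were used, so slides, scans and background could not be examined, and the number of arrays limits the precision.

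A mean per group was estimated by limma 3.58.1 (R 4.3.3) over the 12 arrays (8 residual and 2.39 prior degrees of freedom) and p-values adjusted by Benjamini-Hochberg over 19938 genes per contrast. The code was tested on simulated data. Errors of differences are limma's standard errors. The members and lists were chosen with earlier results of these data known. Up to 4 genes of a list are named by lowest p in the comparison described. Ldb1, Meis1, Mecom, Hoxa9, Prom1, Gp5, Clec1b, Mpo and Ly6e were chosen after their values were seen. Of 49 silent-tissue genes 46 were measured. Fits with other probe set rules, filters, scaling, variance models, array weights, array subsets and a replicate block were alternatives. Deviations from group means correlated between same-numbered wild type arrays of 10 and 2 weeks (r = 0.166 to 0.359 over genes). Between the genotypes they did not, with r = -0.308 to -0.148. The labels state no pairing, and the main fit used none. Wild type replicate 3 read 5.77 for Xist at 2 weeks and 13.11 at 10 weeks, so that pair cannot be taken as matched. No 2 arrays held identical values. The closest pair was ACKR2-/- 2-week arrays 1 and 2, at r = 0.9975 with a largest difference of 1.25. The best match for replicate 3 of the wild type at 2 weeks was with the other genotype, at r = 0.9967 with ACKR2-/- 2-week array 2. Array 3 of the ACKR2-/- 2-week group matched no array above r = 0.9661. Whether these arrays came from separate cultures was not tested.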

Additional observations from a re-analysis of the deposited data

How the results depend on the processing

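No member was called between the genotypes at 10 weeks or between weeks in wild type cells under any alternative run, and with the replicate block the 4 calls between weeks in ACKR2-/- cells stood at 4, with 0 calls in wild type cells. Array weights, whose estimation stopped before full convergence, called 6 members between the genotypes at 2 weeks and 5 in the interaction. In both of these, 5 members were called without wild type 2-week array 3, where genotype and array type cannot be told apart. Leaving out 1 array gave 0 to 5 calls in each of them and 0 to 4 between weeks in ACKR2-/- cells. All genes called there numbered 3358, and 1514, 1391, 0 and 0 without ACKR2-/- 2-week array 1 or 2 or 10-week array 2 or 3, and 9550 with array weights. Array weights gave 9197 at 2 weeks and 4136 in the interaction. Without ACKR2-/- 10-week array 1 limma called 129 genes between the genotypes at 10 weeks and 29 in the interaction, none a member. Without ACKR2-/- 2-week array 3 it called 1 gene at 2 weeks.

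Of the signs that turned, none belonged to a called difference. Array weights put Lmo2 at -0.20 between the genotypes at 2 weeks and at 0.22 between weeks in ACKR2-/- cells, and in wild type cells Cd34 at -0.22, Gfi1b at -0.42, Pf4 at -0.84 and Gp9 at -0.75. With the 4 mast-cell-low arrays left out, a choice made after seeing the data, the wild type differences were -0.41 for Cd34, 0.16 for Flt3, -0.37 for Gfi1b, -0.020 for Pf4 and -0.50 for Gp9. Median centring put Myb at 0.0035. Without single arrays the wild type differences ran from -0.41 to 2.79 for Cd34, -1.42 to 0.16 for Flt3, -0.37 to 0.72 for Gfi1b, -0.020 to 2.15 for Pf4, -0.50 to 0.41 for Gp9, -0.42 to 0.19 for Myb and -0.31 to 0.010 for Lmo2. Between weeks in ACKR2-/- cells they ran from -0.84 to 0.31 for Lmo2 and -0.041 to 1.58 for Pf4. Between the genotypes they ran from -0.14 to 1.00 for Lmo2 at 2 weeks and -0.21 to 0.063 for Cd34 at 10 weeks. The cause was not tested. Values near the silent range, such as Gp9, have no detection call, and RMA data give no signal over background.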

Other observations

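Lists for other marrow lineages were read beside the members. Of 9 genes of granulocyte and monocyte progenitors, none was above the silent range on all 6 arrays at 10 weeks, against 40.6% of all genes. None was above it on all 3 ACKR2-/- 10-week arrays and 5 were on all 3 wild type 10-week arrays. The share of all genes was not computed for 3 arrays. All 9 were below 0 between the genotypes at 10 weeks, with a median of -2.17 and none called. Mpo, myeloperoxidase, read 9.44, 6.89 and 6.99 in ACKR2-/- cells at 10 weeks, against 10.67, 11.39 and 9.07 in wild type cells. Cebpa, a factor of granulocyte commitment, read 9.71, 6.80 and 6.74 in ACKR2-/- cells, against 10.00, 10.50 and 10.19 in wild type cells. ACKR2-/- arrays 2 and 3, which were lowest in Pf4, were also lowest in both among the 10-week arrays. Of 11 neutrophil genes all were below 0 between the genotypes at 10 weeks, with a median of -2.59 and none called.

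Of 12 erythroid genes, 9 were above the silent range on none of the 10-week arrays. Between 10 and 2 weeks in ACKR2-/- cells 3 fell and none rose, at -1.10 for Alas2, of haem synthesis, -1.27 for Slc4a1, the red cell anion exchanger, and -1.07 for Car1. Of 9 lymphoid progenitor genes 8 were above the silent range on none of the 10-week arrays, and in the same comparison 3 fell, at -4.40 for Ebf1, -3.23 for Pax5 and -1.40 for Dntt. Of 11 measured genes of the Ly6 family, relatives of Ly6a, Ly6e alone was above the silent range on all 6 arrays at 10 weeks. Ly6d, a lymphoid marker of that family, fell by 3.99. These decreases set the mast-cell-low ACKR2-/- 2-week arrays against the 10-week arrays.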
